A study of Homo sapiens with 288 samples.

Results

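The genes described here are secreted and membrane-bound modulators of angiogenesis, the growth of new vessels from existing ones. They were chosen by symbol: EGFL7, ROBO4, ECSCR, VASH1, PLVAP, ESM1, MMRN1, MMRN2, CLEC14A and CD93. Of these 10 genes, 9 have a row among the 17492 protein-coding genes of the count tables, and MMRN1 was not analysed here. The study prepared libraries from the stored cDNA of 96 single cells derived from H1, an established human embryonic stem cell line. The 45 EC (endothelial) cells came from H1 in E8 medium with BMP4 at 5 ng/ml and Activin A at 25 ng/ml for 2 days, followed by VEGF and WNT for 3 days. The 51 TB (trophoblast-like) cells came from H1 in E7 medium, which is E8 without FGF2, with BMP4 at 50 ng/ml and the TGF-beta receptor inhibitor SB431542. Each cDNA gave a library in 3 experiments, with equalized cDNA input and equal pooling volumes (EQ), with equalized input and pooling volumes varied on purpose (EQ-Vary), and in a repeat of EQ sequenced less deeply (EQ-75%). All 96 cells have a library in each of the 3 experiments, so cells with the same number are the same cell, and EC and TB libraries were pooled together. The labels name no separate cultures, so each cell type in each experiment is 1 sample, values carry the SD between cells and there is no test.

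New vessels form when endothelial cells leave their neighbours, move through the matrix and rebuild junctions, and the cells themselves release and display proteins that promote or restrain these steps. EGFL7 is a matrix protein released by endothelial cells that helps them arrange into tubes, and its gene hosts the endothelial microRNA miR-126. VASH1 (vasohibin-1) restrains vessel growth and is also a tubulin-trimming enzyme that works with the small partner SVBP. ESM1 (endocan) is a secreted proteoglycan found in sprouting tip cells. MMRN2 is an endothelial matrix glycoprotein of the EMILIN family that binds the lectin-like receptors CLEC14A and CD93, which belong to the same family as thrombomodulin (THBD) and CD248. ROBO4 is the vascular Roundabout receptor, ECSCR is an endothelial surface protein that affects cell movement and survival, and PLVAP builds the diaphragms of fenestrae and caveolae.

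The sequences before the start sites of these genes are shown because most of these genes differed strongly in level between EC and TB. RefSeq promoters on GRCh38.p14 matched 8 of the 9 genes by symbol, all but CD93, with 2 start sites for EGFL7. The 250 bases before each start were searched on both strands for the letters CAGGAA, a common form of the sites of ETS factors such as ERG, for CCGGAA, another ETS form, for AACAAT, which SOX factors bind, and for AGATAA, which GATA factors bind. No match overlapped another. CAGGAA was found before all 9 start sites, that is in 8 of 8 matched genes, and in 24.1% of 35116 promoters of the same length. CCGGAA was found in 0 of the 8 genes and in 14.5% of promoters, AACAAT in 0 and in 8.98%, and AGATAA in ROBO4 alone and in 9.17%. The 11 CAGGAA matches lay 46 to 235 bases before the start, at a median of 146, with 8 on the strand of the gene and 3 on the other strand. ROBO4 and ESM1, which were near 1 CPM in EC, held the letters as well as ECSCR at 415 CPM, and a match is a description of the letters and not a bound site. The genes and the letters were chosen with earlier results of these data known, so the contrast with all promoters is no test of enrichment. Each line gives 40 bases around a match, 5′ to 3′ on the strand of the gene, with the match in capitals (TTCCTG where it lies on the other strand).
EGFL7 (chr9:136658782-136658821, plus strand): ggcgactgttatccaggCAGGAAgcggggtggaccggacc
EGFL7 (chr9:136662817-136662856, plus strand): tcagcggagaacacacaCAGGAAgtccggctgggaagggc
VASH1 (chr14:76761218-76761257, plus strand): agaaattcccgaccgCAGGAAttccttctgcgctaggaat
MMRN2 (chr10:86957739-86957778, minus strand): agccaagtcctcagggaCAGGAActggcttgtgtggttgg
ESM1 (chr5:54985740-54985779, minus strand): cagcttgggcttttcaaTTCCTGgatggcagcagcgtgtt
ECSCR (chr5:139462767-139462806, minus strand): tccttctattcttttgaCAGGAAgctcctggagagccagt
PLVAP (chr19:17377543-17377582, minus strand): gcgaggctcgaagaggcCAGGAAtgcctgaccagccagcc
PLVAP (chr19:17377390-17377429, minus strand): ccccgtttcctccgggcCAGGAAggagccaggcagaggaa
ROBO4 (chr11:124897933-124897972, minus strand): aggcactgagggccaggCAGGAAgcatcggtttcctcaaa
CLEC14A held 2 matches, and its 250 bases are given in full, with the same capitals.
CLEC14A (chr14:38256094-38256343, minus strand): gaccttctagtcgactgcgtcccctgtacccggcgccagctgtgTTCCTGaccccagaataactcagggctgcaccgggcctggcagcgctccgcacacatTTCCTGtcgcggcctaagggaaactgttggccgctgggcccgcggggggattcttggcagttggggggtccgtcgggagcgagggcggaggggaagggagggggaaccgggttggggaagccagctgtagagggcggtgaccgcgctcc

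The microRNA miR-126 lies on chromosome 9 in intron 8 of the canonical EGFL7 transcript, on the strand of the gene. It was not measured, since these libraries count polyadenylated transcripts of protein-coding genes. Its mature arms are given from RefSeq with the seed (bases 2 to 8) in capitals, as the part of the EGFL7 primary transcript known best for its role in vessels.
hsa-miR-126-5p (chr9:136670616-136670636, plus strand): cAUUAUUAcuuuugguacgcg
hsa-miR-126-3p (chr9:136670653-136670674, plus strand): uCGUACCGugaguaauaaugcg

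After the depth and complexity limits of the study, 38 EC and 48 TB cells remained in EQ, 38 and 46 in EQ-Vary, and 39 and 50 in EQ-75%. The total count of an EQ cell ranged from 471598 to 3966827 in EC and from 365557 to 3479268 in TB, so that 1 count was 0.494 CPM (counts per 1000000) at the median EC depth and 0.508 CPM at the median TB depth. Tested genes had a mean of 1 CPM or more in EC or TB. Of the 14 endothelial markers tested, 14 were at least 4 times higher in EC, led by KDR (1600 CPM), PECAM1 (1317 CPM) and FLT1 (729 CPM). Of 13 trophoblast markers tested, 8 were at least 4 times higher in TB, led by KRT18 (1926 CPM), KRT19 (944 CPM) and TFAP2C (388 CPM). Of the others, GATA3, TFAP2A and CGA were higher in TB by less. GATA2 (65.7 CPM in EC, 38.2 CPM in TB) and GCM1 (7.05 and 5.43 CPM) were higher in EC. The share of all genes at least 4 times higher in TB is not given here. Of the blood markers, SPI1 was at 0 in every EC and TB cell, and GATA1 had a count in 1 EC cell. PTPRC was at 18.9 CPM in EC and 12.9 CPM in TB, where 47 of 48 cells had a count. RUNX1 was at 9.53 CPM in EC and 2.94 CPM in TB, with an EC median of 0 and a count in 11 of 38 EC cells. The mural and mesenchymal list was led in EC by RGS5 (794 CPM), ACTA2 (22.2 CPM) and COL1A1 (21.8 CPM), and 4 of its 8 genes were at least 4 times higher in TB. RGS5, which marks pericytes, went the other way, with a count in 38 of 38 EC cells and a mean of 4.56 CPM in TB, a 174-fold difference. The summed level of the list was 45.8 to 2048 CPM in EC cells and 651 to 9953 CPM in TB cells, so the groups overlap, and the part of this list in the results was not tested. The pluripotent list summed to a median of 427 CPM in EC and 413 CPM in TB, with SOX2 at 0 in every EC cell. LIN28A (279 CPM), NANOG (83.2 CPM) and GDF3 (55.4 CPM) had its highest EC means. The means of NANOG and GDF3 rest on few cells, since their EC medians were 33.7 and 0.280 CPM. GDF3 had a count in 20 of 38 EC cells, and 1 EC cell was at 1502 CPM of NANOG. Of the early mesoderm list, APLNR (338 CPM), PDGFRA (11.8 CPM) and MESP1 (0.0423 CPM) led in EC, with MIXL1 and EOMES at 0, and the mitosis list, led by TOP2A, CCNB1 and MKI67, reached 7181 CPM in 1 EC cell against a median of 52.3 CPM.

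Of the 9 genes, 7 were at least 4 times higher in EC than in TB in EQ, and each was also more than 10 times higher, whereas 10.8% of the 12752 genes that reached 1 CPM on average in either cell type met the 4-fold rule. The 7 genes are ECSCR, CD93, MMRN2, PLVAP, CLEC14A, EGFL7 and VASH1, and the remaining genes, ESM1 and ROBO4, were near 1 CPM in both cell types. The median fold over the 9 genes was 66.6, against 0.949 over all genes tested. The count was 7 in EQ-Vary, where 10.9% of genes met the rule, and 7 in EQ-75%, where 10.2% did.

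**Figure D1:**
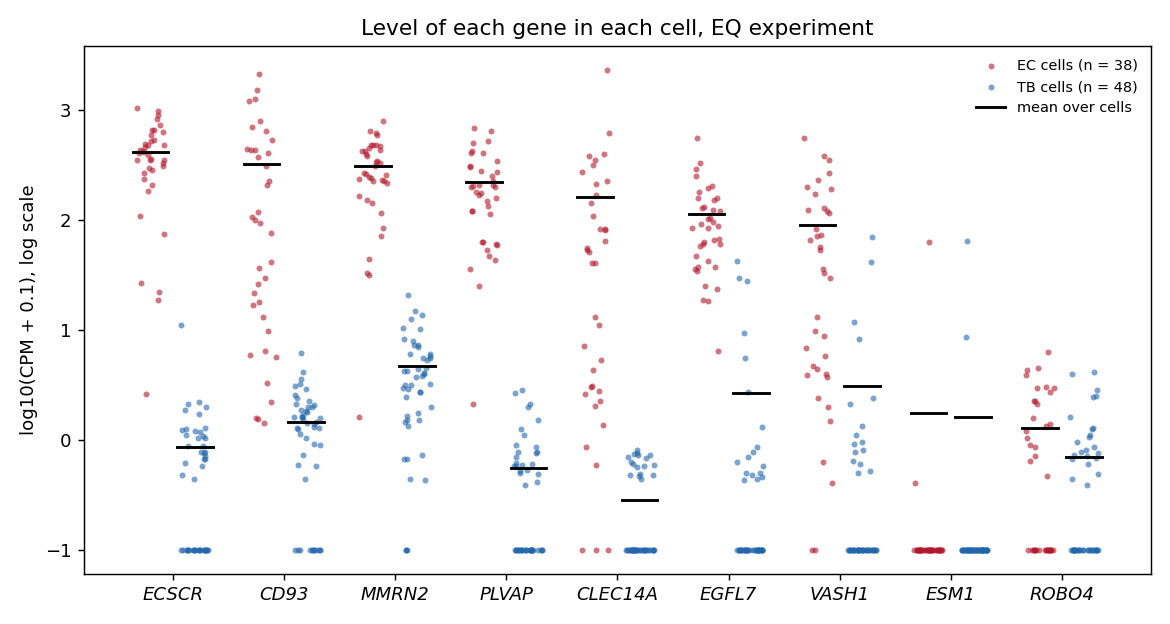
Each point is 1 cell of the EQ experiment and gives the level of a gene as log10(CPM + 0.1), with EC cells (n = 38) in red, TB cells (n = 48) in blue and a black bar at the mean over cells. ECSCR, CD93, MMRN2, PLVAP, CLEC14A, EGFL7 and VASH1 have EC means from 89.3 to 415 CPM and TB means under 5 CPM, and ESM1 and ROBO4 are near 1 CPM in both.

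Among the secreted proteins, MMRN2 (ENSG00000173269, chr10:86935540-86969481, GRCh38, minus strand) was the most abundant. It was at a lowest, median and highest level of 1.49, 265 and 791 CPM in EC cells, with a mean of 305 ± 187 CPM (SD between cells, n = 38). In TB cells it was at 0, 3.64 and 20.8 CPM, with a mean of 4.58 ± 4.28 CPM (n = 48), which is 66.6-fold lower. All EC cells but 1 were above the highest TB cell, and the exception was the cell EC 15.

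EGFL7 (ENSG00000172889, chr9:136658856-136672678, plus strand) was at 6.30, 85.9 and 555 CPM in EC cells, with a mean of 114 ± 106 CPM (n = 38). In TB cells its median was 0 and its mean 2.55 ± 8.22 CPM (n = 48), a 44.5-fold difference. A count of EGFL7 was found in 38 of 38 EC cells and in 18 of 48 TB cells. The TB values were uneven, since TB 17 was at 41.7 CPM, TB 39 at 29.6 CPM and TB 45 at 27.3 CPM, inside the EC range, and TB 17 was at 40.8 and 54.2 CPM in its EQ-Vary and EQ-75% libraries. EGFL7 was above the highest TB cell in 29 of 38 EC cells, so the groups overlap.

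VASH1 (ENSG00000071246, chr14:76761468-76783015, plus strand) was at 0, 34.005 and 555 CPM in EC cells, with a mean of 89.3 ± 126 CPM (n = 38). Its spread was wide, since 16 of 38 EC cells were under 10 CPM and 12 were at 100 CPM or more. In TB cells its median was 0 and its mean 2.97 ± 11.7 CPM (n = 48), a 30.1-fold difference, and 16 of 48 TB cells had a count. TB 11 alone held 49.3% of the TB sum, at 70.1 CPM in EQ, 91.0 and 93.1 CPM in EQ-Vary and EQ-75%, and only 15 of 38 EC cells were above it. The partner SVBP did not share this contrast, with 21.7 ± 37.6 CPM in EC and 34.9 ± 34.3 CPM in TB, and the paralogue VASH2 had a count in 1 EC cell and no TB cell.

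ESM1 (ENSG00000164283, chr5:54977867-55022671, minus strand) was at 0 in nearly every cell of both types, and its mean was 1.67 ± 10.2 CPM in EC (n = 38) and 1.505 ± 9.26 CPM in TB (n = 48). In EC it had a count in 2 cells, at 63.0 CPM in EC 17 and 0.307 CPM (1 count) in EC 18. In TB it had a count in 2 cells, at 63.8 CPM in TB 33 and 8.46 CPM in TB 29. The cells with many counts were the same in all experiments: EC 17 was at 63.1 and 42.3 CPM in EQ-Vary and EQ-75%, TB 33 at 52.0 and 65.7 CPM, and TB 29 at 11.2 and 14.01 CPM. A count in 2 of 38 EC cells is 5.26% (exact binomial 95% interval 0.644 to 17.7), and 2 of 48 TB cells is 4.17% (0.509 to 14.3), intervals that cover counting error only. The ratio of EC over TB was 1.11 in EQ, 1.18 and 0.663 in EQ-Vary and EQ-75%, so it rests on 1 cell of each type and gives no direction.

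Among the membrane proteins, ECSCR (ENSG00000249751, chr5:139448560-139462743, minus strand) had the highest mean of the 9 genes. It was at 2.49, 393 and 1048 CPM in EC cells, with a mean of 415 ± 260 CPM (n = 38), and 33 of 38 cells were at 100 CPM or more. In TB cells it was at 0, 0.491 and 10.9 CPM, with a mean of 0.766 ± 1.62 CPM (n = 48), a 542-fold difference. ECSCR was above the highest TB cell in 37 of 38 EC cells, all but EC 15. Exons of its canonical transcript overlap those of ENSG00000279686 on the same strand in GENCODE v44. The split of reads between these 2 annotated genes could be uncertain where both were counted, which was not tested. None of the other genes overlaps exons of another protein-coding gene.

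CD93 (ENSG00000125810, chr20:23079360-23086324, minus strand) was at 1.31, 95.6 and 2115 CPM in EC cells, with a mean of 323 ± 485 CPM (n = 38). A count was found in 38 of 38 EC cells, but 9 of them were under 10 CPM and 18 at 100 CPM or more. In TB cells it was at 0, 1.31 and 6.07 CPM, with a mean of 1.36 ± 1.23 CPM (n = 48), a 237-fold difference. The lowest EC cells, EC 37 at 1.31 CPM, EC 43 at 1.45 CPM and EC 5 at 1.47 CPM, were at the level of the median TB cell, and 31 of 38 EC cells were above the highest TB cell.

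CLEC14A (ENSG00000176435, chr14:38254000-38256093, minus strand) was at 0, 45.4 and 2301 CPM in EC cells, with a mean of 160 ± 385 CPM (n = 38), of which the cell EC 23 held 37.8%. Without EC 23 the mean was 102 CPM. In TB cells its highest value was 0.708 CPM and its mean 0.182 ± 0.258 CPM (n = 48), from 20 counts in all TB cells (exact Poisson 95% interval 12.2 to 30.9). The 880-fold difference was the largest of the 9 genes in EQ and ranked 29 among the 12752 genes tested. This order rests on EC 23 and on the mean over cells: without EC 23 the fold was 562, near that of ECSCR (556), and with pooled counts it was 619, below ECSCR (737) and PLVAP (650). EC 33, EC 20 and EC 43 had no count of CLEC14A, and 34 of 38 EC cells were above the highest TB cell.

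PLVAP (ENSG00000130300, chr19:17351450-17377342, minus strand) was at 1.99, 189 and 686 CPM in EC cells, with a mean of 219 ± 170 CPM (n = 38). In TB cells it was at 0, 0.144 and 2.74 CPM, with a mean of 0.451 ± 0.674 CPM (n = 48), a 486-fold difference. Its EC and TB cells overlapped in EQ through EC 15 alone, and in EQ-Vary the lowest EC cell was above the highest TB cell. Such a complete separation was found for 0 of the 9 genes in EQ (0.0549% of all genes tested), for 1 in EQ-Vary (0.0862%) and for 0 in EQ-75% (0.063%).

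ROBO4 (ENSG00000154133, chr11:124883691-124898500, minus strand) had the lowest EC mean of the 9 genes, below that of ESM1 through the cell EC 17 alone. It was at 0, 0.571 and 6.12 CPM and a mean of 1.19 ± 1.56 CPM (n = 38). In TB cells its mean was 0.599 ± 0.975 CPM (n = 48). A count was found in 21 of 38 EC cells (55.3%, exact binomial 95% interval 38.3 to 71.4) and in 23 of 48 TB cells (47.9%, 33.3 to 62.8), and the ratio of EC over TB was 1.98, under the 4-fold rule. With every EC cell kept, the ratio was 7.99, and this value rests on shallow libraries, since the highest of the 7 cells left out, EC 41, had 2 counts of ROBO4 in a total of 13925. Its relative ROBO3 was at 2.60 ± 9.60 CPM in EC, with a count in 8 cells, and at 0 in TB, and UNC5B, a receptor that binds ROBO4, was at 67.8 ± 144 CPM in EC and 1.24 ± 4.55 CPM in TB.

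In order of the mean EC level in CPM the genes ran ECSCR, CD93, MMRN2, PLVAP, CLEC14A, EGFL7, VASH1, ESM1 and ROBO4. Neighbours in this order differed by less than the SD between cells, although VASH1 was above ESM1 in 35 of 38 cells. The order did not hold within cells throughout: CD93 was below MMRN2 in 24 of 38 cells and CLEC14A below EGFL7 in 22 of 38, although their means were higher. ESM1 was above ROBO4 in 1 cell and below it in 21, so its place rests on EC 17, without which its mean was 0.00831 CPM. Per kilobase of the canonical transcript, the mean EC level was 402 ± 252 CPM per kb for ECSCR, 95.7 ± 74.3 for PLVAP, 76.5 ± 184 for CLEC14A, 73.8 ± 45.2 for MMRN2, 64.5 ± 60.2 for EGFL7, 48.4 ± 72.6 for CD93 and 13.8 ± 19.6 for VASH1, so ECSCR stood apart on this scale and the next 5 genes did not differ beyond their spread.

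The fixed list of known partners and paralogues held 25 genes, of which 22 have a row and 16 were tested. At least 4 times higher in EC were 8 of them, DLL4 (93.6 ± 121 CPM), UNC5B, KDR, NOTCH4 (42.8 ± 69.6 CPM), NOTCH1 (23.5 ± 27.6 CPM), ITGA5 (418 ± 352 CPM), THBD (71.3 ± 135 CPM) and ROBO3. Of the ligands, SLIT2, a Roundabout ligand, was at 91.5 ± 134 CPM in EC and 294 ± 302 CPM in TB. IGFBP7, a secreted protein reported to bind CD93, was the 1 listed gene at least 4 times higher in TB, at 83.3 ± 87.2 CPM against 11.3 ± 20.8 CPM in EC. Of the integrins, ITGB1 was at 1420 ± 619 CPM in EC and 674 ± 472 CPM in TB, and ITGAV at 165 ± 173 CPM and 83.5 ± 98.8 CPM, both under the 4-fold rule. EGFL8, the relative of EGFL7, was at 8.09 ± 21.7 CPM in EC and 7.35 ± 16.7 CPM in TB. EMILIN2, a relative of MMRN2, was at 16.5 ± 53.0 CPM in EC and 29.01 ± 32.4 CPM in TB, and EMILIN1 and EMILIN3 were at or near 0 in both. In the receptor family of CD93 and CLEC14A, THBD was at 10.41 ± 54.1 CPM in TB, and CD248 was at 5.72 ± 14.8 CPM in EC and 2.15 ± 14.8 CPM in TB.

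Per cell, the number of the 9 genes with a count had a median of 7.5 and a range of 6 to 9 in EC (n = 38), and a median of 4 and a range of 2 to 8 in TB (n = 48). With a minimum of 5 counts these ranges separated, from 4 to 8 genes in EC and from 0 to 3 in TB, whereas in EQ-Vary they met at 4 genes, in EC 15 and TB 27. The summed level of the 9 genes was 1628 ± 859 CPM in EC, with a lowest, median and highest cell of 118, 1399 and 4263 CPM, and 15.0 ± 16.7 CPM in TB, with 2.29, 8.35 and 72.5 CPM. The lowest EC cell was above the highest TB cell on the sum in EQ, and also in EQ-Vary, at 111 against 95.6 CPM. In EQ-75% the groups overlapped through 1 EC cell, EC 15, at 47.6 CPM against 96.7 CPM in TB 11.

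**Figure D2:**
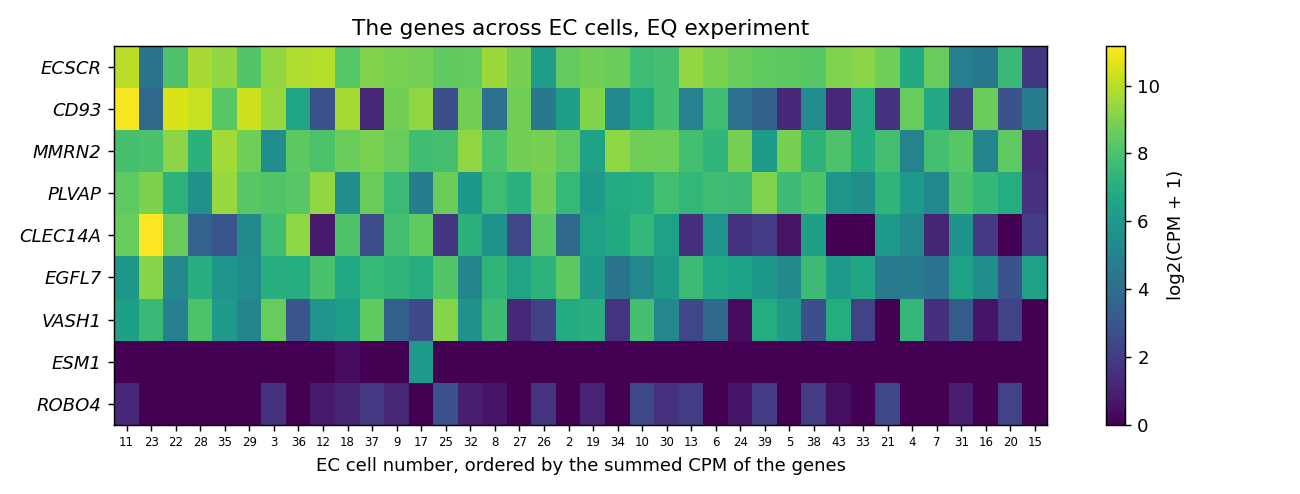
Rows are the 9 genes and columns the 38 EC cells of EQ by cell number, ordered by the summed CPM of the genes, and colour gives log2(CPM + 1). CD93, CLEC14A and VASH1 range from dark to bright across cells, ECSCR, MMRN2, PLVAP and EGFL7 are bright in nearly every cell, and EC 15 at the right end is dark in most rows.

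The 7 abundant genes differed in how evenly they were expressed across EC cells. MMRN2 and ECSCR were the most even, with a coefficient of variation (SD over mean) of 0.612 and 0.627, and 90.3% and 89.3% of the 3983 genes of at least 50 CPM varied more. PLVAP (0.776) and EGFL7 (0.934) were also under the median of those genes, which was 1.16. VASH1 (1.42), CD93 (1.499) and CLEC14A (2.40) were above it, and 3.41% of genes varied more than CLEC14A. The value of CLEC14A rests on EC 23. Without that cell, left out after seeing the data, it was 1.44, near VASH1 (1.47) and CD93 (1.47), and 29.9% of genes varied more.

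At the low end, EC 15 had the lowest level of ECSCR, MMRN2 and PLVAP and no count of VASH1, but EGFL7 was at 83.2 CPM and CD93 at 25.9 CPM in it. Its KDR (51.3 CPM) was the lowest of the EC cells and its POU5F1 (384 CPM) the highest, and its pluripotent list summed to 2756 CPM, the highest in EC. Its trophoblast list summed to 2270 CPM, also the highest in EC and above the lowest TB cell (1682 CPM). Not all endothelial markers were low in it, since SOX17 was at 229 CPM against an EC mean of 35.1 CPM and S1PR1 at 127 CPM against 110 CPM, 2 genes named after their values were seen. In its EQ-75% library MMRN2 was at 10.9 CPM and ECSCR had no count. At the high end, EC 23 had the highest CLEC14A (2301 CPM) and EGFL7 (555 CPM) with ECSCR at 18.5 CPM and CD93 at 12.8 CPM. These genes were at 2468, 688, 4.68 and 20.3 CPM in its EQ-Vary library and at 2294, 663, 11.7 and 17.5 CPM in its EQ-75% library. The low values rest on few counts, with 13, 3 and 4 of ECSCR and 9, 13 and 6 of CD93 in EQ, EQ-Vary and EQ-75%. The total count of EC 23 was 700857 in EQ. EC 11 had the highest ECSCR (1048 CPM) and CD93 (2115 CPM) together.

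Co-variation between EC cells was described with the Spearman correlation of CPM for the 8 genes with a count in most EC cells, which leaves out ESM1. All correlations are over the same cells and libraries, so they share depth and batch, and none carries a p-value. Of the 28 pairs, 2 reached a rho of 0.3 in EQ (n = 38 cells), where 6.57% of the 39600550 pairs of 8900 genes did. In EQ-Vary 3 pairs did (6.49% of all pairs, n = 38) and in EQ-75% 3 pairs did (6.23%, n = 39). The median rho of the 28 pairs was 0.112, 0.0505 for EQ-Vary and 0.148 for EQ-75%, against 0.0299, 0.0305 and 0.0281 over all pairs. The 95% range of all gene pairs in EQ ran from -0.307 to 0.383, and 25 of the 28 pairs lay inside it.

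The strongest pair was that of the related receptors CD93 and CLEC14A, with a rho of 0.477 in EQ, 0.507 and 0.525 in EQ-Vary and EQ-75%. Among all gene pairs, 0.701%, 0.395% and 0.290% were as high or higher in these experiments. This pair is the highest of 28 and was named after the values were seen, so these shares are no measure of chance. The experiments use the same cells and cDNA and are not independent repeats. At 10 CPM or more, 21 of 38 EC cells of EQ had both, 8 had CD93 alone, 2 had CLEC14A alone and 7 had neither. Without EC 23, the cell with high CLEC14A and low CD93, rho was 0.540. The correlation of CD93 with the summed endothelial list was 0.210 and that of CLEC14A was 0.328. Both ran against the summed mitosis list, CD93 at -0.312 and CLEC14A at -0.234. Both also ran against the summed trophoblast list, at -0.382 and -0.224. The part of these lists in the pair was not tested. Their common ligand MMRN2 did not follow CD93, with a rho of -0.0817 in EQ, -0.0458 and -0.0336 in EQ-Vary and EQ-75%. The rho of MMRN2 with CLEC14A was 0.162, 0.0877 and 0.277. In EQ-75%, 7.93% of all gene pairs were as high as this last value. THBD, of the same family, had a rho of 0.259 with CD93 and 0.254 with CLEC14A, the latter falling to 0.110 and 0.104 in EQ-Vary and EQ-75%.

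**Figure D3:**
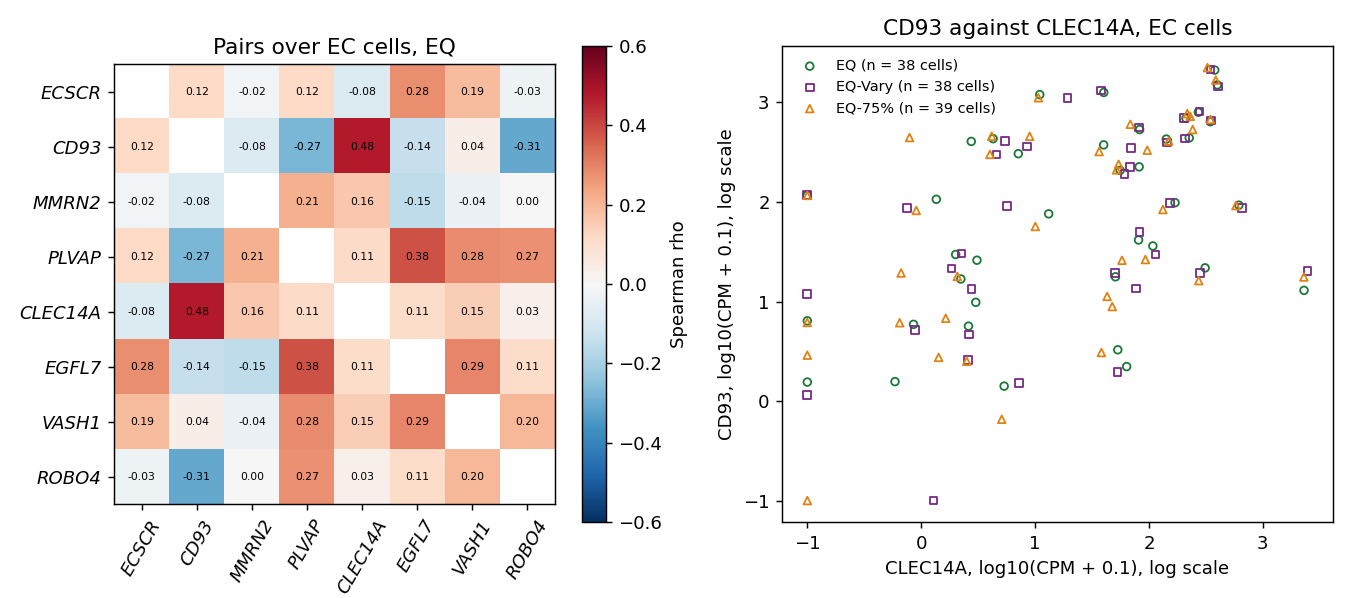
The left panel gives the Spearman rho of each pair of 8 genes over 38 EC cells of EQ, and the right panel plots CD93 against CLEC14A in log10(CPM + 0.1), 1 point per EC cell, with circles for EQ, squares for EQ-Vary and triangles for EQ-75%. CD93 with CLEC14A is the strongest pair (0.477 in EQ), and 1 cell with 2301 CPM of CLEC14A has little CD93.

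EGFL7 and PLVAP formed the other pair past 0.3 in EQ, with a rho of 0.384, and 0.322 and 0.387 in EQ-Vary and EQ-75%. EGFL7 with VASH1 was at 0.291, 0.326 and 0.285. CD93 ran weakly against PLVAP, at -0.274, -0.271 and -0.227. The value of -0.307 for CD93 with ROBO4 in EQ was -0.0104 in EQ-Vary; ROBO4 has few counts. ECSCR and MMRN2 depended on the scale, with a Spearman rho of -0.0172 and a Pearson correlation of log2(CPM + 1) of 0.522, and EC 15 was the lowest cell of both genes.

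For each of the 8 genes the 3 genes most like it over EC cells were named, out of 8337 genes of at least 5 CPM (8338 for ROBO4). PLVAP was most like CDH5 (VE-cadherin, the adhesion protein of endothelial junctions), with a rho of 0.680 in EQ, 0.662 and 0.505 in EQ-Vary and EQ-75%, and CDH5 was at 406 ± 399 CPM in EC and 0.752 ± 1.27 CPM in TB. CLEC14A was most like RAB38 (0.738), then NID1 (0.664), a basement membrane protein at 157 CPM in EC and 1.75 CPM in TB, and APOLD1 (0.587), an endothelial protein at 317 and 8.12 CPM. ECSCR was most like MRPL14 (0.716), THY1 (0.523) and LGMN (0.517), CD93 like UBA6 (0.610), AAED1 (0.587) and TCF4 (0.584), and MMRN2 like SEC24C (0.624), DIDO1 (0.606) and BABAM1 (0.547). VASH1 was most like TMEM60 (0.593), CDC37 (0.574) and PDGFA (0.557), EGFL7 like SUPV3L1 (0.569), GABARAPL2 (0.543) and SART3 (0.527), ROBO4 like CLIP1 (0.616), RAB7A (0.572) and IPO11 (0.570), and PIAS3 (0.541) and RP11-305M3.2 (0.531) came after CDH5 for PLVAP. These are the highest of all values ranked, and some were not repeated in the other libraries of the same cells: SUPV3L1 with EGFL7 was at 0.0946 in EQ-75% and CLIP1 with ROBO4 at 0.139 in EQ-Vary, while NID1 with CLEC14A was at 0.676 and 0.649 and MRPL14 with ECSCR at 0.676 and 0.621.

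The 3 libraries of each cell show how often a low value was repeated. The paper describes EQ and EQ-Vary as differing in pooling, and EQ-75% as a repeat of all of EQ. Whether EQ and EQ-Vary were pooled from the same prepared library of each cell is not stated. Their agreement may therefore not include the spread from library preparation. Of the 37 EC cells that passed in all 3 experiments, MMRN2, EGFL7 and PLVAP had a count in all 3 libraries of all 37, ECSCR in 36, CD93 in 35, CLEC14A in 32 and VASH1 in 31. The EC levels of these 7 genes ranked the cells alike, with a rho of 0.967 to 0.991 between EQ and EQ-Vary and of 0.8997 to 0.978 between EQ and EQ-75%. In the 45 TB cells, MMRN2 had a count in all 3 libraries of 39 cells, with a rho of 0.602 between EQ and EQ-Vary and 0.471 between EQ and EQ-75%. CD93 had a count in all 3 libraries of 20 TB cells, and its rho values were 0.478 and 0.234. ECSCR had a count in at least 1 library of 44 TB cells but in all 3 of only 5, with a rho of -0.282 and 0.0820, so its low TB counts were not repeated from library to library. CLEC14A was found in all 3 libraries of 1 TB cell, in 1 library alone of 21 cells and in none of 16. The TB mean was 1.502% of the EC mean for MMRN2, 0.421% for CD93, 0.206% for PLVAP, 0.185% for ECSCR and 0.114% for CLEC14A, and the source of these low TB counts was not tested.

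**Figure D4:**
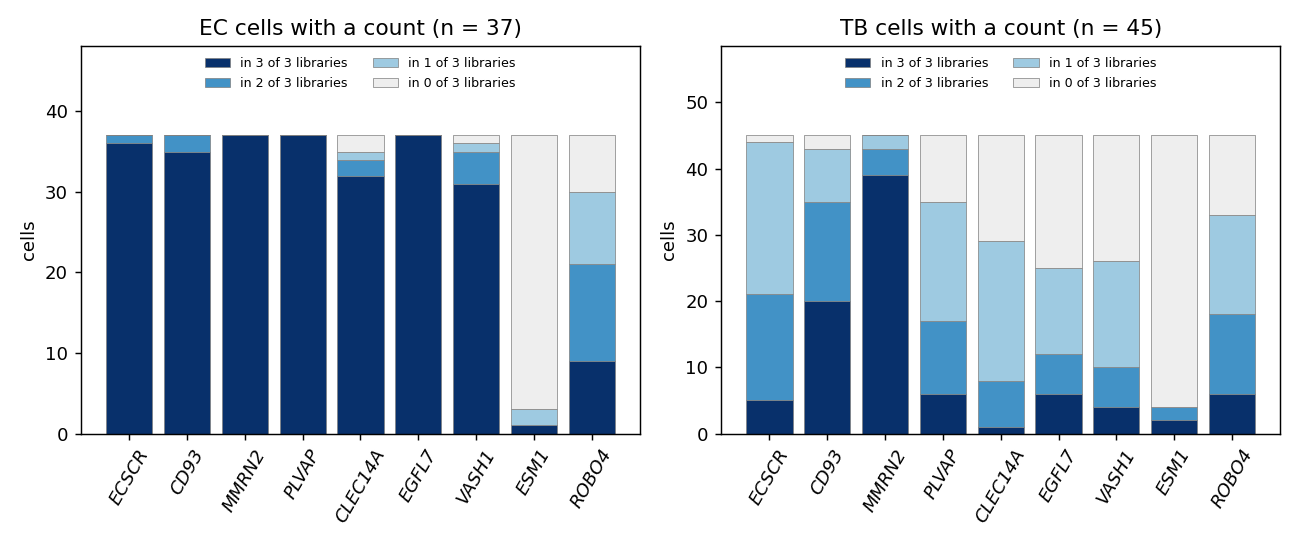
Bars count the cells, 37 EC cells on the left and 45 TB cells on the right, by the number of their 3 libraries with at least 1 count of the gene, from dark (3 of 3) to pale (0 of 3). In TB cells MMRN2 is found in all 3 libraries of 39 cells, ECSCR in all 3 of 5 and CLEC14A in all 3 of 1.

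The libraries were compared within cells. EQ-75% was also sequenced less deeply than EQ, so these differences hold depth as well as preparation. Between EQ and EQ-75%, the number of the 9 genes with a count per EC cell was 0.270 ± 0.732 higher in EQ (SD, n = 37 cells), with more in EQ in 14 cells, fewer in 5 and the same in 18. In TB cells the difference was 0.872 ± 1.71 (n = 47), with more in EQ in 28 cells, fewer in 10 and the same in 9. Between EQ and EQ-Vary it was 0.0263 ± 0.753 in EC (n = 38) and 0.261 ± 2.06 in TB (n = 46). In EC, EQ had more in 9 cells and fewer in 9, and in TB more in 20 and fewer in 18.

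In EC cells that passed in both, EGFL7 was at 115 CPM in EQ and 89.5 CPM in EQ-75%, a ratio of 0.776, and it was lower in EQ-75% in 30 of 37 cells. VASH1 had a ratio of 0.823 and was lower in 29 of 37 cells. These 2 of the 7 abundant genes were lower by at least 1.2-fold, which 15.7% of the 9618 genes of at least 5 CPM were, and between EQ and EQ-Vary 0 of 7 were, against 0.457% of genes. At a 1.1-fold limit 4 of the 7 were lower in EQ-75%, against 32.9% of genes. PLVAP (0.840), ECSCR (0.902), CLEC14A (0.944), MMRN2 (0.958) and CD93 (1.03) changed by less, and the median ratio of all genes was 0.969. Within cells, CLEC14A was lower in EQ-75% in 29 of 37 cells and higher in 6, PLVAP was lower in 28, ECSCR and MMRN2 in 26 each and CD93 in 22. The median within-cell ratio was 0.862 for CLEC14A and 0.970 for CD93, so CD93 was lower in most cells although its mean was not. The SD of the within-cell log2 ratio of EGFL7 was 0.61, and its median was -0.35.

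The canonical transcripts of the 7 abundant genes are above the median of all genes in their share of G and C bases, at 67.3% for EGFL7, 60.3% for PLVAP, 60.1% for VASH1, 57.6% for MMRN2, 57.4% for CLEC14A, 51.7% for ECSCR and 50.9% for CD93, where the median of the 9596 genes with a value was 46.4%. That of ROBO4 is at 59.6% and that of ESM1 at 39.7%, below this median. Genes lower in EQ-75% had a median of 57.5% and the others 44.7%, and the Spearman correlation of this share with the log2 ratio across genes, which are not independent replicates, was -0.688. The order of the 7 genes by ratio followed their GC content in part, with EGFL7 at one end and CD93 at the other, and the cause was not tested.

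**Figure D5:**
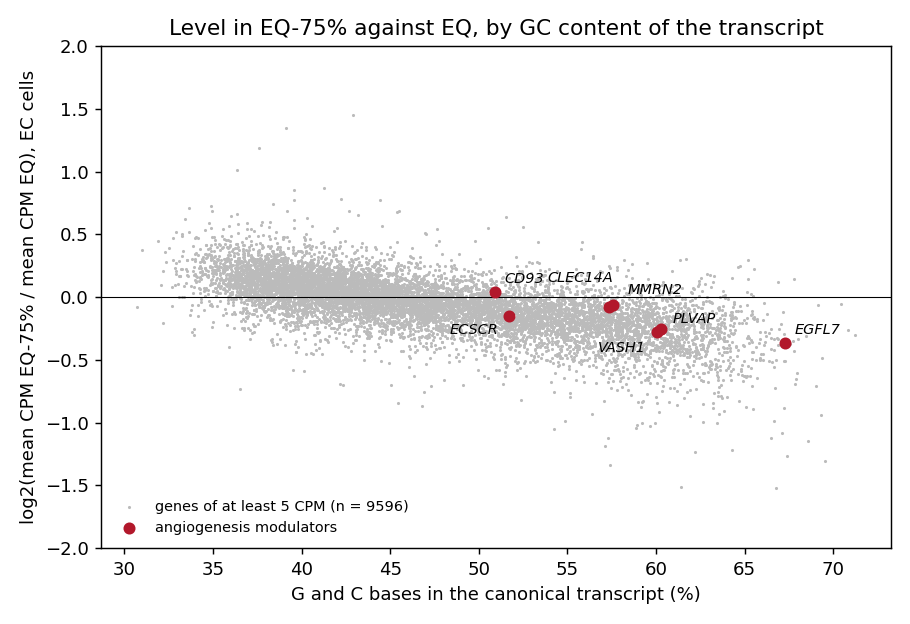
Each grey point is 1 of 9596 genes of at least 5 CPM and the red points are the 7 abundant genes, with the GC content of the canonical transcript in percent on the x axis and the log2 ratio of mean CPM in EQ-75% over EQ in EC cells (n = 37) on the y axis. EGFL7, at 67.3% GC, has a ratio of 0.776, and CD93, at 50.9%, a ratio of 1.03.

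The count-depth rate is the slope of the log count of a gene on the log total count of a cell, with 1 for a count in proportion to depth. The median slope of 8 genes in EC cells was 1.39 in EQ, 1.21 and 0.998 in EQ-Vary and EQ-75% by median regression. By least squares it was 1.19, 1.09 and 0.822, against 0.777, 0.782 and 0.719 over all genes fitted. In EQ, single genes ran from 2.08 for CD93 and 1.86 for EGFL7 to 0.893 for CLEC14A by median regression, with ROBO4 near 0, and CLEC14A was at -0.0237 by least squares, so the slope of a single gene depended on the fit.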

How the data were processed

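The tables hold 17492 genes and 288 libraries, of 45 EC and 51 TB cells per experiment. The authors trimmed reads to 51 bp, mapped them with Bowtie 1.2.3 to GRCh38 Ensembl protein-coding genes allowing 2 mismatches, and deposited RSEM 1.2.31 expected counts without normalization. Reads without molecular identifiers are not independent molecules, so intervals cover counting error only. Counts were rounded to whole numbers, and CPM is a rounded count over the cell total, per 1000000. Cells needed a log10 total count of at least 5.4 and at most 31% of counts in the 50 most abundant genes, as in the study's methods, and no doublet caller was run. The median total count of passing EC cells was 2025166.5 for EQ, 1781484 for EQ-Vary and 1499278 for EQ-75%. Of the sample columns, 0 were unused. A gene was higher in EC when its mean was at least 1 CPM there and at least 4 times the TB mean, and a TB sum of 0 was set to 3 counts over the group. Libraries of a cell were compared within cells, since the study made them from the same cDNA.

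The members, lists and motifs were chosen with earlier results of these data known. All members were named, with the 3 genes most like each, the tested genes of the partner list and the 3 most abundant genes of each marker list, of which 1 is not reported here. Alternatives covered cell limits, fold, rounding, scran 1.30.0 size factors (R 4.3.3), depth, detection minimum, correlation measure and experiment. Rules were tested on simulated data. Python 3.11.15, numpy 2.4.6, scipy 1.17.1 and statsmodels 0.14.6 were used, with transcripts from GENCODE v44.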

Additional observations from a re-analysis of the deposited data

Results flagged for a closer look

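The EC cells of EQ outside the limits on depth and on the most abundant genes enter no EQ value except where all cells were kept. EC 1 and EC 14 passed these limits in EQ-75% and enter its values. In 7 of 7 of the EC cells left out of EQ, the summed EQ level of the 9 genes was above the 72.5 CPM of the highest passing TB cell. It ran from 374 to 2879 CPM, with a median of 934 CPM. The total counts of these EC cells ran from 11410 to 336867, and a few counts are enough to pass this bar in the shallowest. Of the TB cells of EQ outside the limits, TB 28 (241 CPM) and TB 4 (109 CPM) were also above this bar. TB 48 was at 0. The total counts of TB 28 and TB 4 were 12436 and 45813. These TB cells passed the limits in EQ-75%. There TB 28 was at 20.6 CPM, TB 4 at 7.003 CPM and TB 48 at 0.921 CPM. EC 1 and EC 14 were at 986 and 1657 CPM in EQ-75%, against 96.7 CPM in its highest passing TB cell. The cause of the difference between libraries was not tested.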

How the results depend on the processing

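The number of genes at least 4 times higher in EC was 7 under every alternative except with all cells kept, where it was 8, through ROBO4. The median fold stayed between 45.9 and 78.7. The fold of ECSCR moved most among the abundant genes, from 139 with all cells to 910 in EQ-75%, that of PLVAP from 238 to 650 and that of CLEC14A from 562 without EC 23 to 1192 in EQ-75%, and the cause was not tested. The median correlation of gene pairs, 0.112, was 0.164 with scran size factors and 0.0505 in EQ-Vary, again with no test of the cause. The pair CD93 and CLEC14A and the count of genes lower in EQ-75% were chosen as results after seeing the data, with all their alternatives, as was leaving out EC 15 or EC 23. The correlation of that pair ranged from 0.358 with all cells to 0.540 without EC 23. At a 1.1-fold limit 4 genes were lower in EQ-75% in place of 2. Without the replicate block, that is over all passing EC cells, the number of genes detected per cell differed by 0.269 between EQ and EQ-75%. Over the same cells this difference was 0.270. The passing EC cells of EQ and EQ-Vary are the same, so their difference of 0.0263 could not change. At 5 counts, thinned to 1000000 counts or in EQ-75%, 7 rather than 8 genes were found in most EC cells. At this depth ROBO4 had 5 or more counts in 5 of 38 EC cells and ESM1 in 1.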
